A study of Homo sapiens with 6 samples.

Results

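The genes described here encode integrins, laminins and collagens, measured in 6 samples of the human bladder cancer cell line RT4 and of lines derived from it. Members were taken by name, as every probe of the array table whose gene name begins as an integrin alpha or beta chain, a laminin alpha, beta or gamma chain, or a collagen alpha chain. The name pattern matched 142 of 47322 probes and 83 of 34329 genes. One match, COL4A3BP, now named CERT1, encodes a ceramide transfer protein and is no collagen, so it was set apart, leaving 140 probes and 82 genes. Of these, 59 probes and 42 genes were detected, meaning that 1 or more of the 6 arrays gave them a detection p-value under 0.01, and the other 40 genes are named without values. Across the whole array 20944 probes and 16285 genes were detected by the same rule.

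Each sample was hybridised to 1 Illumina HumanHT-12 version 4 array. Spheres were RT4P cells, the parental line, treated for 24 h with 1 uM cisplatin and 20 mM lithium chloride and then left for 4 h of transformation before pure spheres were isolated. Blebbishields were RT4P cells after the same 24 h in both agents, and held blebbishields that form spheres together with those that do not. Blebbishields are the structures that remain after apoptosis of these cells. RT4P-BSE2, RT4v6, PBSHMS and RT4P live cells were profiled as live cells without either agent. They are called untreated in that sense, which leaves aside how each line was derived. The RT4P-BSE2 cells were survivors of 2 serial rounds of the blebbishield emergency program. For RT4v6, cells were carried through 6 serial passages in mice as an enrichment for cancer stem cells. PBSHMS came from fusion of RT4 blebbishields with human blood mononuclear cells. With 1 array per group there is no replicate error, so no test was run and no p-value for a difference is given.

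Integrins are cell surface receptors made of 1 alpha and 1 beta chain that bind matrix proteins outside the cell and link to the cytoskeleton inside it. Laminins are trimers of 1 alpha, 1 beta and 1 gamma chain and, with type IV collagen, build the basement membrane under an epithelium such as the urothelium of the bladder. In hemidesmosomes, the integrin of the ITGA6 and ITGB4 chains and the transmembrane collagen COL17A1 hold epithelial cells to a laminin that contains the LAMA3 and LAMB3 chains, and COL7A1 forms the anchoring fibrils beneath. Laminins that carry the LAMA5 chain with LAMB1 or LAMB2 and LAMC1 are the other main epithelial forms.

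The promoters of LAMA3 and LAMB3 are shown because both genes passed 2-fold between the post-apoptotic samples. They are the 250 bases before a gene start in RefSeq (GRCh38.p14), read on the gene's strand, at chr18:23872770-23873019 on the plus strand for LAMA3 and at chr1:209651375-209651624 on the minus strand for LAMB3. Capitals mark TGAGTCA and TGACTCA, which are each other's reverse complement and the core word bound by AP-1 transcription factors.
LAMA3: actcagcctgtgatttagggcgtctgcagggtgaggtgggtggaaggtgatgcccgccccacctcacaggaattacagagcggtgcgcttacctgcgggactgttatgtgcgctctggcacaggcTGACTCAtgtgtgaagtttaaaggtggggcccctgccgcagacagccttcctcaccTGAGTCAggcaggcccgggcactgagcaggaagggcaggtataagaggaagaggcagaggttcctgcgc
LAMB3: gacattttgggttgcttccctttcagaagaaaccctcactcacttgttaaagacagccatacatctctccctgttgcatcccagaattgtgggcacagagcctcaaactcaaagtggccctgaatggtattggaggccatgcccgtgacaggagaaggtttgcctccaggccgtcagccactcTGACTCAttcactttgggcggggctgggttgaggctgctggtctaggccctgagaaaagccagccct
The LAMA3 window held TGACTCA from base -125 and TGAGTCA from base -69, and the LAMB3 window held TGACTCA from base -67, counted back from the start. LAMB3 has 3 windows in the table and only the one shown held the word. Over all windows of this length in RefSeq 4.2% held either word, and among the 46 windows found for 33 of the 42 detected members 2 did, or 4.35%. A match describes the letters and is no evidence of binding in these cells.

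The windows of COL4A5 and COL4A6 are shown because these 2 type IV collagen genes lie head to head on chromosome X, and COL4A6 passed 2-fold against RT4P live cells in 2 of the lines where COL4A5 did not. The COL4A5 window is at chrX:108439588-108439837 on the plus strand and the COL4A6 window at chrX:108439459-108439708 on the minus strand, and capitals mark the 121 bases that both share, read from opposite strands.
COL4A5: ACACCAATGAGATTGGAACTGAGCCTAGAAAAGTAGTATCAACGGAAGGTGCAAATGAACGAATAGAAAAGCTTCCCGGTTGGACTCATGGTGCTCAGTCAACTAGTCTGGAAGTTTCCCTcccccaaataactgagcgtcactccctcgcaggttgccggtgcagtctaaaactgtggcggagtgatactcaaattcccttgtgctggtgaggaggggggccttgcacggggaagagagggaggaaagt
COL4A6: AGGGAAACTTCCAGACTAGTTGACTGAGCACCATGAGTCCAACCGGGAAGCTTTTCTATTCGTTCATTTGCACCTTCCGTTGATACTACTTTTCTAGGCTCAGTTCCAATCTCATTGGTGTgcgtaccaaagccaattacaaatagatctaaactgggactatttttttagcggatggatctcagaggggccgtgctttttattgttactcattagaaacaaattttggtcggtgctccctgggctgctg
The 2 gene starts lie 380 bases apart. COL4A6 has a second window in the table, from another start, which is not shown.

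Between 31.2% and 37.2% of all probes were detected per array. The blebbishield array was the dimmest, with 14749 probes detected and a mean signal of 263.2, against 15788 to 17593 probes and 349.5 to 389.2 on the other 5 arrays. Member genes detected numbered 30 on the sphere array, 28 on the blebbishield array, 34 on that of RT4P-BSE2, 31 on that of RT4v6, 28 on that of PBSHMS and 33 on that of RT4P live cells. By construction about 1% of probes with background signal pass on each array, and 9 of the 59 member probes passed on exactly 1 array. The genes nearest the detection threshold were COL27A1 and COL5A1, with a lowest detection p of 0.00909, and COL23A1, which missed it at 0.01169. Of 12 epithelial and urothelial markers, 11 were detected on every array, among them CDH1, KRT7, KRT19 and UPK2, and KRT5 on none. Of 10 fibroblast and smooth muscle markers only ACTA2 was detected, on all arrays, and of 6 endothelial markers only VWF, on all arrays but that of PBSHMS. Among the collagen members, which are not in these marker lists, COL1A1, COL1A2, COL3A1 and COL6A3 were detected on no array. COL5A2 was detected on all 6 arrays, COL6A1 on 4, COL12A1 on 3, and COL5A1 and COL6A2 on 1 each. Of 13 leukocyte markers, LCP1 was detected on every array, CD14 in spheres, blebbishields and RT4P-BSE2, and CD2 in spheres, RT4P-BSE2 and RT4v6, so that 1 to 3 were detected per array. PTPRC, CD3D and CD3E were detected nowhere. In samples of bulk RNA, fewer cells that express a gene and less of its RNA per cell cannot be told apart.

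All levels below are log2 values of the background-corrected, normalized signal and can be compared between arrays for 1 gene but not between genes, because probes differ in brightness. A difference is the first sample minus the second on that scale. A gene is called higher or lower at 2-fold or more. Where the dimmer array did not detect the gene, it was given that array's lowest detected value, from 5.01 to 5.47, so that the fold is a lower bound, written "at least". A gene stands by its brightest detected probe.

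**Figure D1:**
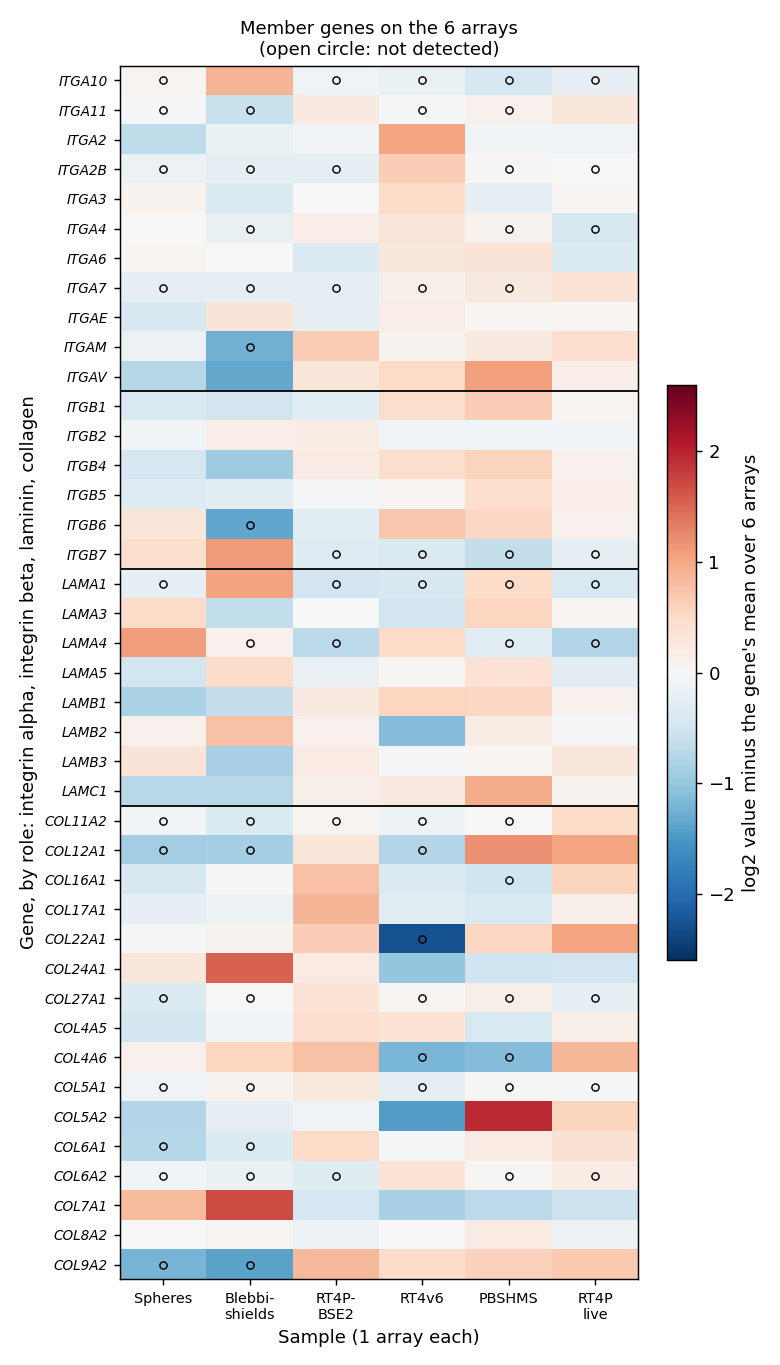
Heat map of detected member genes (vertical axis, by role) on the 6 arrays (horizontal axis). Colour is the log2 value minus the gene's mean over the 6 arrays, and open circles mark arrays that did not detect the gene; the deepest blue cell is COL22A1 on the RT4v6 array, at 4.73, and the deepest red is COL5A2 on the PBSHMS array, at 9.45.

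In blebbishields 3 of 36 measured members were at least 2-fold higher than in RT4P live cells, or 8.33%, against 7.12% of all 13716 genes measured, and 6 were at least 2-fold lower, or 16.7%, against 4.76% of all genes, while 11.9% of all genes passed in either direction. The members' median difference was -0.28, and that of all genes 0.00. Single markers of other cell types moved in blebbishields too. ACTA2, the 1 of 10 fibroblast and smooth muscle markers detected, was 2.19-fold higher than in RT4P live cells, at a summed list signal of 555 in blebbishields and 276 in RT4P live cells. VWF, the 1 of 6 endothelial markers detected, was 2.58-fold higher, at 344 in blebbishields and 148 in RT4P live cells, with PECAM1 and CDH5 undetected on all arrays. Their part in the members' differences was not tested. In spheres against RT4P live cells, 2 of 36 members were higher (5.56%, against 3.00% of all genes) and 5 were lower (13.9%, against 3.31%), with a median of -0.40 and 6.32% of all genes past 2-fold in either direction. In spheres against blebbishields, 3 of 32 were higher (9.38%, against 3.03%) and 1 was lower (3.12%, against 6.02%), with a median of -0.09 and 9.06% of all genes past 2-fold in either direction. All 3 comparisons share arrays with each other.

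Among the untreated lines, RT4P-BSE2 differed least from RT4P live cells, with 0 of 36 members at 2-fold in either direction, where 1.31% of all genes were higher and 0.273% lower, together 1.58%. RT4v6 had 1 of 37 members higher (2.70%, against 1.15% of all genes) and 5 lower (13.5%, against 2.41%), where 3.56% of all genes passed in either direction. PBSHMS had 1 of 33 higher (3.03%, against 1.81%) and 1 lower (3.03%, against 2.04%), where 3.85% of all genes passed in either direction. These 3 comparisons share the RT4P live array. In all, 16 of the 42 detected members passed 2-fold in at least 1 of the 6 comparisons, in 28 calls, of which 10 were bounds. That is 38.1% of them, against 18% of all detected genes, 2924 of 16285.

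**Figure D2:**
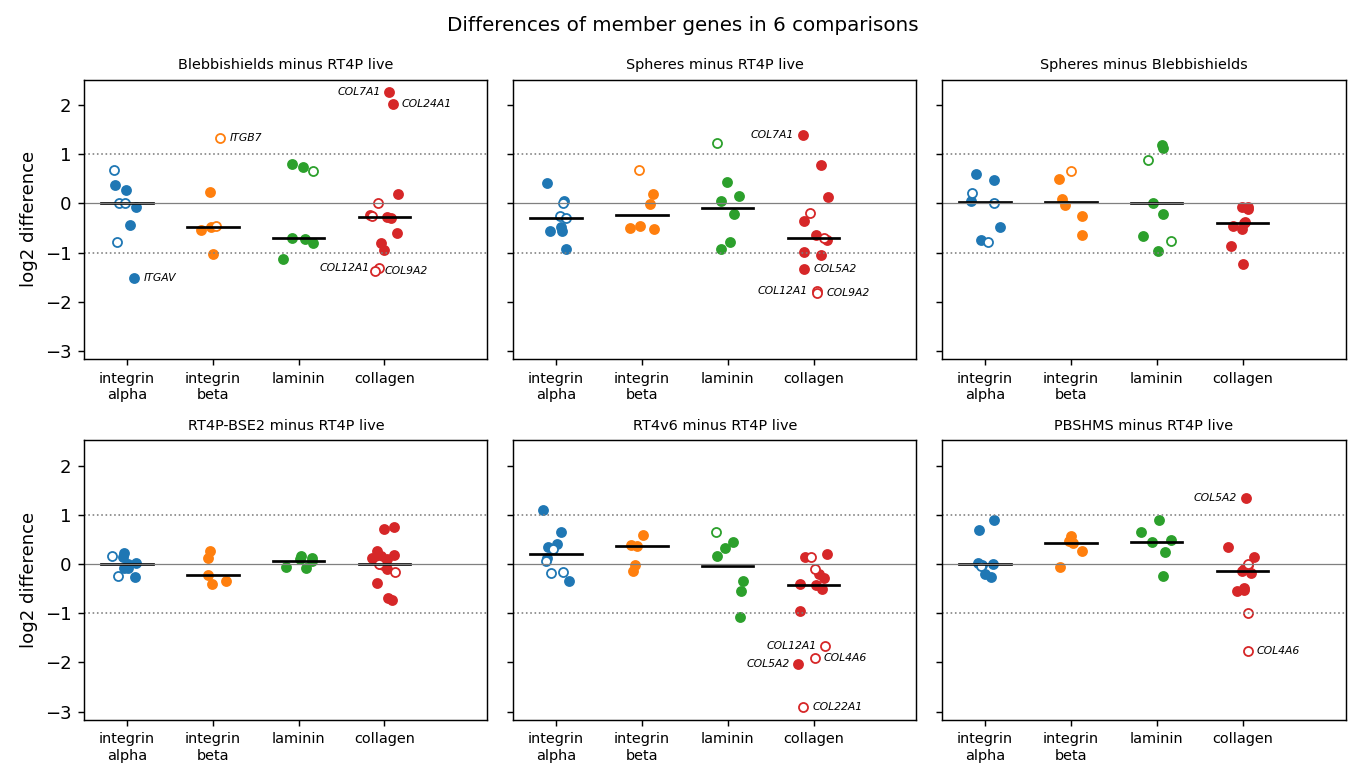
Log2 differences of measured member genes (points, open where the value is a bound) in the 6 comparisons, by role, with the median over all measured genes of each role as a black bar and 2-fold as dotted lines. Genes with a log2 difference of 1.3 or more in size are named. Points beyond 2-fold lie mostly among laminins and collagens, and none does in RT4P-BSE2.

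Among the integrin genes, differences past 2-fold were seen for ITGAV, ITGA2, ITGB4 and ITGB7. Of the alpha chains 11 of 18 genes were detected, or 61.1%, and of the beta chains 6 of 8, or 75%, against 47.4% of all genes. At 2-fold, 2 of the 11 detected alpha chains and 2 of the 6 detected beta chains passed in any comparison. Of all detected genes, 2924 of 16285 did, or 18%.

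ITGAV, the alpha chain of the integrins that bind RGD ligands such as fibronectin and vitronectin, was lower in blebbishields than in RT4P live cells. Its level was 10.06 in spheres, 9.46 in blebbishields, 11.11 in RT4P-BSE2, 11.32 in RT4v6, 11.87 in PBSHMS and 10.98 in RT4P live cells. The spheres and blebbishields thus gave the 2 lowest values and the fusion line the highest. ITGAV was 2.86-fold lower in blebbishields than in RT4P live cells, a log2 difference of -1.52 that lay between -2.37 and -1.42 over the 8 alternative settings. In spheres the difference from RT4P live cells was -0.92, and in PBSHMS 0.90, both under 2-fold.

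ITGA2, which pairs with ITGB1 as a collagen and laminin receptor, differed in the mouse-passaged line. Its level was 8.59 in spheres, 9.08 in blebbishields, 9.18 in RT4P-BSE2, 10.27 in RT4v6, 9.18 in PBSHMS and 9.16 in RT4P live cells. RT4v6 alone stood above the other arrays, whose values lay between 8.59 and 9.18. The difference of RT4v6 from RT4P live cells was 1.11, or 2.16-fold, and stayed past 2-fold under all 8 alternatives, at 1.01 to 1.11.

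ITGB4, the hemidesmosome beta chain, had a level of 9.28 in spheres, 8.78 in blebbishields, 9.93 in RT4P-BSE2, 10.17 in RT4v6, 10.28 in PBSHMS and 9.81 in RT4P live cells. It was 2.04-fold lower in blebbishields than in RT4P live cells. The call ended under 4 of the 8 alternatives, which were no background correction, an offset of 50, the mean over probes and the authors' processed values. A second probe, detected on all arrays, gave -0.89. A dim one, detected in RT4P live cells alone, gave -0.86 with no bound applied. Its partner ITGA6 ran between 6.76 and 7.46 over the arrays by its brightest probe and was under 2-fold in every comparison. By that probe it was 0.37 higher in blebbishields than in RT4P live cells. A second ITGA6 probe, not detected in blebbishields, went the other way, by -0.82 with no bound applied. In spheres against blebbishields this second probe gave 1.28 with no bound applied, where the brightest gave 0.04.

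ITGB7, a beta chain known from lymphocytes, was detected in spheres at 5.80 and in blebbishields at 6.45, and on none of the 4 untreated arrays, where it read 5.00 in RT4P-BSE2, 4.96 in RT4v6, 4.72 in PBSHMS and 5.11 in RT4P live cells. Its detection p-value just missed the threshold in RT4P live cells, at 0.01039, and in RT4P-BSE2, at 0.01299. In blebbishields ITGB7 was at least 2.54-fold higher than in RT4P live cells. That call ended under 4 of the 7 alternatives that could be run for it, among them no between-array normalization and the authors' processed values. Its lymphocyte partner ITGA4 was dim throughout, at 4.70 to 5.42, and detected on 3 arrays, and its other partner ITGAE, which binds E-cadherin, read between 9.19 and 9.93 and was detected on all 6. The monocyte marker CD14 was also detected in spheres, at 5.26, and in blebbishields, at 5.85, as well as in RT4P-BSE2, at 5.11, and not in RT4P live cells, at 4.95. The summed signal of the leukocyte list was 1905 in spheres, 1674 in blebbishields and 3161 in RT4P live cells, and ran from 454 to 3327 over the 4 untreated arrays, with PTPRC undetected on all. Most of that sum was the signal of LCP1, at 10.82 in spheres, 10.61 in blebbishields and 11.58 in RT4P live cells. The other genes of the list read 5.85 or less on every array. Their part in the ITGB7 result was not tested.

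The integrin genes without a 2-fold difference included the common beta chain ITGB1, at 10.65 in spheres, 10.56 in blebbishields, 10.76 in RT4P-BSE2, 11.50 in RT4v6, 11.68 in PBSHMS and 11.11 in RT4P live cells. RT4v6 and PBSHMS gave its 2 highest values, and all 3 of its detected probes were higher than in RT4P live cells in both lines, PBSHMS by 0.57 to 0.88. ITGA3, a laminin receptor chain, ran from 10.47 to 11.32, and ITGB5, a partner of ITGAV, from 9.13 to 9.90. ITGB6, whose integrin with ITGAV activates latent TGF-beta, was detected on all arrays but that of blebbishields, and ran from 5.53 to 6.52 where it was detected. ITGAM, a chain of myeloid cells, had the same pattern of detection, at 5.68 in spheres, not detected at 4.58 in blebbishields, 6.48 in RT4P-BSE2, 5.91 in RT4v6, 6.06 in PBSHMS and 6.26 in RT4P live cells. ITGB2, the beta chain shared by leukocyte integrins, lay within 6.67 and 6.98 on all 6 arrays by its brightest probe, at 6.67 in PBSHMS and 6.72 in RT4P live cells. A dimmer ITGB2 probe read 5.73 in PBSHMS and 5.57 in spheres, and 4.99 in RT4P live cells, where it was not detected. With no bound applied it was 0.74 higher in PBSHMS and 0.57 higher in spheres than in RT4P live cells. ITGA10, ITGA2B and ITGA7 were each detected on 1 array and ITGA11 on 2, at levels up to 5.80. ITGA1, ITGA5, ITGA8, ITGA9, ITGAD, ITGAL, ITGAX, ITGB3 and ITGB8 were not detected.

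The laminin genes LAMB3 and LAMA3, whose promoters are printed above, were low in blebbishields. LAMB3 had a level of 9.30 in spheres, 8.12 in blebbishields, 9.18 in RT4P-BSE2, 8.91 in RT4v6, 9.02 in PBSHMS and 9.25 in RT4P live cells, and LAMA3 one of 6.78 in spheres, 5.65 in blebbishields, 6.30 in RT4P-BSE2, 5.81 in RT4v6, 6.85 in PBSHMS and 6.35 in RT4P live cells. Blebbishields gave the lowest value of both genes, and for LAMA3 the array of RT4v6 came close. LAMB3 was 2.20-fold lower in blebbishields than in RT4P live cells, and LAMA3 differed by -0.70, under 2-fold. In spheres against blebbishields LAMB3 was 2.26-fold higher and LAMA3 2.19-fold higher, and another LAMA3 probe gave 1.66 with no bound applied. Each of these 3 calls ended under 2 to 4 of the alternatives, in every case without background correction. Against RT4P live cells, the spheres differed by 0.04 for LAMB3 and by 0.43 for LAMA3. A dim LAMB3 probe was detected in RT4v6 and PBSHMS alone. With no bound applied, it gave 0.51 and 0.73 there against RT4P live cells, where the brightest probe gave -0.34 and -0.24.

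**Figure D3:**
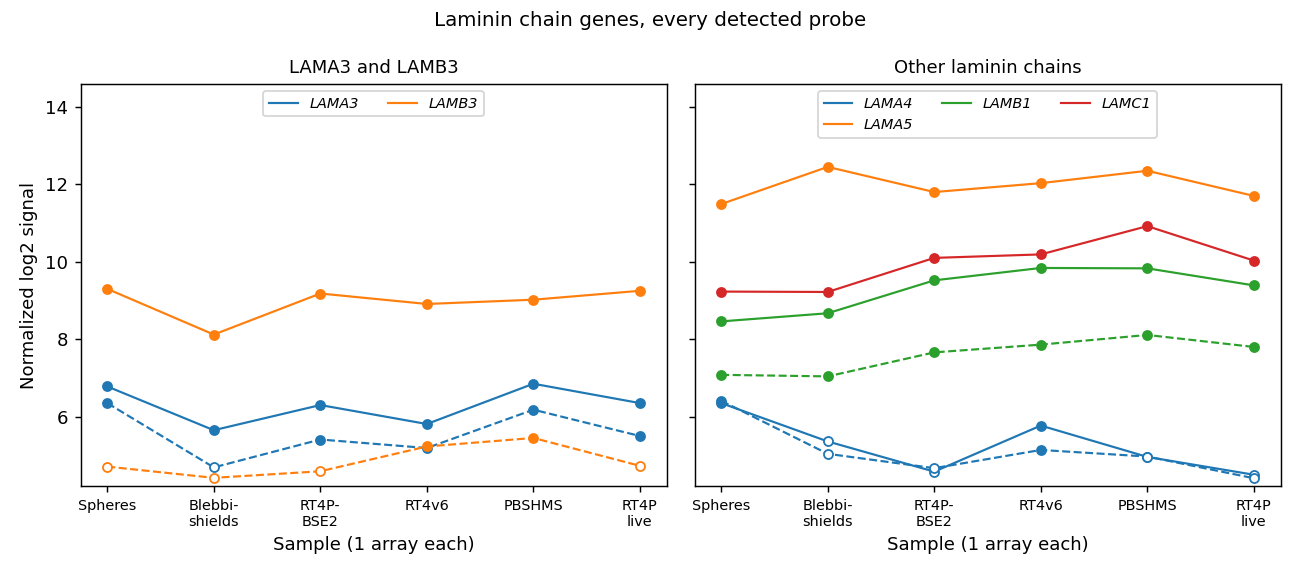
Normalized log2 signal (vertical axis) of laminin chain genes on the 6 arrays (horizontal axis), left for LAMA3 and LAMB3 and right for LAMA4, LAMA5, LAMB1 and LAMC1. Lines join the values of 1 probe, solid for the probe that stands for the gene, and open points were not detected; LAMA3 and LAMB3 are lowest on the blebbishield array by their brightest probes, at 5.65 and 8.12.

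The chains of the LAMA5 laminins stayed under 2-fold apart from LAMB2. LAMA5 had a level of 11.49 in spheres, 12.45 in blebbishields, 11.80 in RT4P-BSE2, 12.03 in RT4v6, 12.35 in PBSHMS and 11.70 in RT4P live cells, and the blebbishield value was the highest. LAMC1 read 9.23 in spheres, 9.22 in blebbishields, 10.10 in RT4P-BSE2, 10.19 in RT4v6, 10.92 in PBSHMS and 10.03 in RT4P live cells, with the post-apoptotic samples lowest and PBSHMS highest. LAMB1 had a similar order, at 8.46 in spheres and 8.67 in blebbishields against 9.39 in RT4P live cells, and at 9.52 to 9.84 in the 3 derived lines. None of these 3 passed 2-fold in any comparison. LAMA5 came closest, at -0.96 in spheres against blebbishields. Against RT4P live cells LAMB1 reached -0.92 in spheres and LAMC1 0.89 in PBSHMS. In PBSHMS the 7 laminin genes measured had a median difference of 0.45 from RT4P live cells, where that of all genes was 0.00, and 0 of them passed 2-fold.

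LAMB2, the beta chain that replaces LAMB1 in part of the laminins, was lower in the mouse-passaged line. Its level was 6.48 in spheres, 7.14 in blebbishields, 6.49 in RT4P-BSE2, 5.25 in RT4v6, 6.57 in PBSHMS and 6.33 in RT4P live cells, and the RT4v6 value stood apart below. The difference of RT4v6 from RT4P live cells was 2.11-fold lower, and it fell under 2-fold with an offset of 50, without background correction and in the authors' processed values.

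LAMA4, a chain best known from vessels and muscle, was detected in spheres at 6.35 and in RT4v6 at 5.77, and not in blebbishields at 5.36, RT4P-BSE2 at 4.58, PBSHMS at 4.96 or RT4P live cells at 4.50. In spheres it was at least 2.36-fold higher than in RT4P live cells, and a second probe gave 2.01 with no bound applied. The call ended under 3 of 7 alternatives. That second probe, with levels of 6.41 in spheres and 5.14 in RT4v6, was detected on the same 2 arrays. LAMA1 was detected on the blebbishield array alone, at 5.77. LAMA2, LAMB4, LAMC3 and the pseudogene LAMB2L, now LAMB2P1, were not detected.

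Of the collagen genes 16 of 43 were detected, or 37.2%, against 47.4% of all genes, and 6 of them on all 6 arrays. Of the type IV genes, COL4A5 and COL4A6 were detected and COL4A1, COL4A2, COL4A3 and COL4A4 were not. COL4A5 had a level of 9.12 in spheres, 9.52 in blebbishields, 10.03 in RT4P-BSE2, 9.96 in RT4v6, 9.21 in PBSHMS and 9.76 in RT4P live cells, and never differed 2-fold. COL4A6, its head-to-head neighbour, had a level of 6.29 in spheres, 6.73 in blebbishields, 6.92 in RT4P-BSE2, 4.99 in RT4v6, 5.05 in PBSHMS and 7.03 in RT4P live cells. It was not detected in RT4v6 or PBSHMS, where its detection p-values were 0.01948 and 0.01299, while COL4A5 was detected in both. COL4A6 was at least 3.76-fold lower in RT4v6 and at least 3.41-fold lower in PBSHMS than in RT4P live cells. Both calls ended without background correction, at -0.88 and -0.83, and in the authors' processed values. The other 2 probes of COL4A6 were detected on no array.

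The collagens COL7A1 and COL24A1 were higher in blebbishields than in RT4P live cells, and COL7A1 in spheres too. COL7A1, which forms anchoring fibrils, had a level of 7.51 in spheres, 8.38 in blebbishields, 6.25 in RT4P-BSE2, 5.83 in RT4v6, 5.99 in PBSHMS and 6.12 in RT4P live cells. Both treated samples were above all 4 untreated ones. It was 4.78-fold higher in blebbishields and 2.62-fold higher in spheres than in RT4P live cells. The blebbishield difference stayed past 2-fold under all 8 alternatives, at 1.45 to 2.31, and that of spheres went down to 0.81 without background correction. COL24A1, a minor fibrillar collagen, had a level of 6.50 in spheres, 7.74 in blebbishields, 6.43 in RT4P-BSE2, 5.21 in RT4v6, 5.70 in PBSHMS and 5.71 in RT4P live cells. It was highest in blebbishields, where it was 4.07-fold higher than in RT4P live cells, with a range of 1.15 to 2.08 over the alternatives. In spheres it was 2.36-fold lower than in blebbishields, a call that ended under 4 of the 8 alternatives. The difference of spheres from RT4P live cells was 0.79, under 2-fold, and RT4P-BSE2 read close to spheres.

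COL9A2 and COL12A1 fell below detection in both post-apoptotic samples. COL9A2, a fibril-associated collagen of cartilage, was not detected in spheres at 4.94 or in blebbishields at 4.77, and read 6.99 in RT4P-BSE2, 6.63 in RT4v6, 6.75 in PBSHMS and 6.83 in RT4P live cells. It was at least 3.55-fold lower in spheres and at least 2.58-fold lower in blebbishields than in RT4P live cells. COL12A1, a fibril-associated collagen, was not detected in spheres at 4.86, in blebbishields at 4.90 or in RT4v6 at 4.99, and read 6.07 in RT4P-BSE2, 6.94 in PBSHMS and 6.79 in RT4P live cells. It was at least 3.43-fold lower in spheres, at least 2.49-fold lower in blebbishields and at least 3.18-fold lower in RT4v6 than in RT4P live cells. A second COL12A1 probe was detected on no array. It read 4.91 in spheres, 4.33 in blebbishields, 5.12 in RT4v6 and 4.45 in RT4P live cells. The calls of both genes ended without background correction and in the authors' processed values. In blebbishields both calls also ended with an offset of 50, and that of COL12A1 with arrays shifted to equal medians.

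COL5A2, a chain of the type V collagen that nucleates fibrils, varied most among the collagens. Its level was 6.76 in spheres, 7.29 in blebbishields, 7.42 in RT4P-BSE2, 6.06 in RT4v6, 9.45 in PBSHMS and 8.10 in RT4P live cells. PBSHMS was highest and RT4v6 lowest, 3.39 log2 units apart. Against RT4P live cells COL5A2 was 2.55-fold higher in PBSHMS, 4.10-fold lower in RT4v6 and 2.54-fold lower in spheres. The first 2 of these calls held under all 8 alternatives, and that of spheres fell to -0.91 at its smallest. Type V collagen also needs COL5A1, which was detected on the RT4P-BSE2 array alone, at 5.06. ACTA2, the smooth muscle actin gene in the marker list, was likewise highest in PBSHMS at 9.56 and lowest in RT4v6 at 6.52, against 7.93 in RT4P live cells. It was the only 1 of the list's 10 genes detected on any array, with DCN, LUM and PDGFRA undetected throughout, and the list's summed signal was 795 in PBSHMS, 123 in RT4v6 and 276 in RT4P live cells. Its part in the COL5A2 result was not tested.

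COL22A1, a collagen of tissue junctions, had a level of 6.97 in spheres, 7.08 in blebbishields, 7.63 in RT4P-BSE2, 7.54 in PBSHMS and 8.02 in RT4P live cells, and was not detected in RT4v6 at 4.73. The signal of its probe before processing was 104.5 in RT4v6 and 364.3 in RT4P live cells. It was at least 7.49-fold lower in RT4v6 than in RT4P live cells, and the difference lay between -3.29 and -1.57 over the alternatives. In spheres it was 2.07-fold lower than in RT4P live cells, a call that ended under 4 of 7 alternatives.

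**Figure D4:**
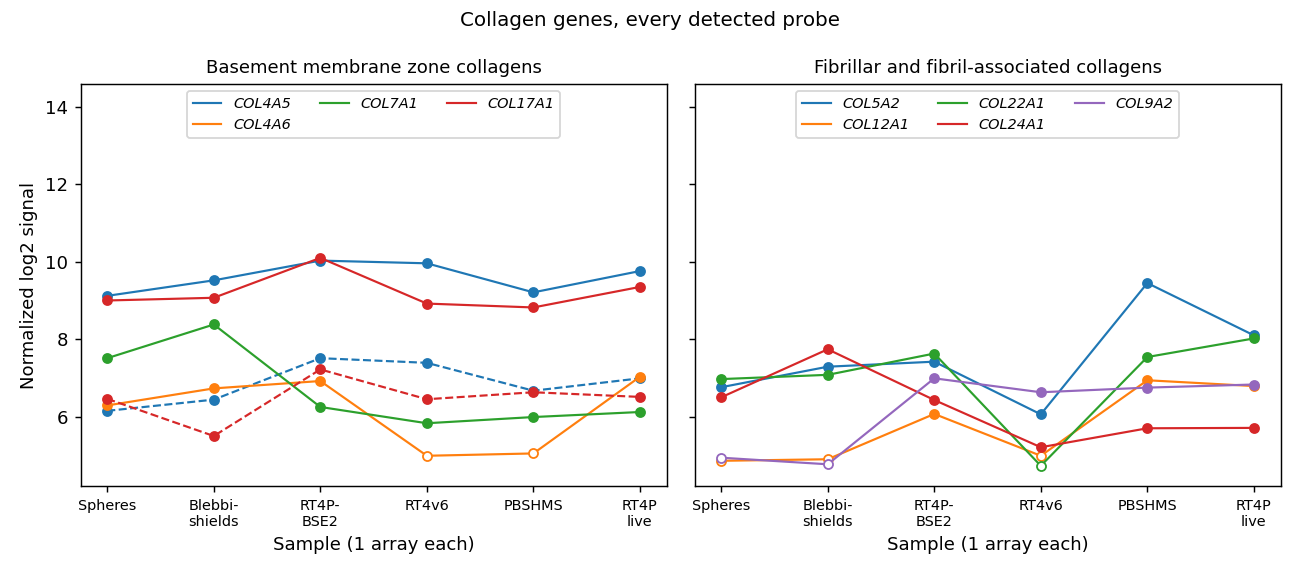
Normalized log2 signal (vertical axis) of 9 collagen genes on the 6 arrays (horizontal axis). Lines join the values of 1 probe, solid for the probe that stands for the gene, and open points were not detected; COL7A1 and COL24A1 peak on the blebbishield array at 8.38 and 7.74, and COL22A1, COL4A6, COL5A2 and COL12A1 are low on the RT4v6 array.

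The remaining collagens stayed under 2-fold. COL17A1, the hemidesmosome collagen, read 9.0 in spheres, 9.07 in blebbishields, 10.10 in RT4P-BSE2, 8.92 in RT4v6, 8.82 in PBSHMS and 9.35 in RT4P live cells. RT4P-BSE2 was highest, by 0.75 over RT4P live cells, and the second probe gave 0.71. In blebbishields the probes gave -0.27 and -1.0 against RT4P live cells. COL16A1 was near 2-fold lower in spheres, at -0.99, in RT4v6, at -0.96, and in PBSHMS, where it was not detected and the bound was -0.99. COL6A1 ran from 5.30 to 5.82 on the 4 untreated arrays and was not detected in spheres or blebbishields. COL8A2 varied by 0.37 over all arrays. COL11A2, COL27A1, COL5A1 and COL6A2 were each detected on 1 array, at no more than 5.25. Not detected were COL10A1, COL11A1, COL13A1, COL14A1, COL15A1, COL18A1, COL19A1, COL1A1, COL1A2, COL20A1, COL21A1, COL23A1, COL25A1, COL28A1, COL29A1 (now COL6A5), COL2A1, COL3A1, COL5A3, COL6A3, COL6A6, COL8A1, COL9A1 and COL9A3, with the 4 type IV genes above.

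Genes that act with the members were described by lists. Of focal adhesion partners, which couple integrins to actin, 18 were measured in blebbishields against RT4P live cells, 0 were higher and 1 was lower, or 5.56% against 4.76% of all genes. In spheres 1 of 19 was lower, or 5.26% against 3.31%. The gene was FERMT1 in both, an integrin activator of epithelia, at 8.36 in spheres and 8.18 in blebbishields against 9.37 in RT4P live cells, or 2.01-fold and 2.28-fold lower. In the 3 derived lines 0 focal adhesion partners passed 2-fold, of 19 in RT4P-BSE2, 19 in RT4v6 and 18 in PBSHMS. Of 3 hemidesmosome partners, PLEC, the plakin that binds ITGB4, was 3.78-fold higher in spheres, at 8.27, than in RT4P live cells, at 6.35, and 3.65-fold higher than in blebbishields, at 6.40. This 1 of 3 is 33.3%, against 3.00% and 3.03% of all genes higher in these comparisons. Against RT4P live cells 0 of the 3 passed 2-fold in blebbishields, RT4P-BSE2, RT4v6 or PBSHMS.

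Of 15 collagen processing enzymes measured in spheres against RT4P live cells, 0 were higher and 2 lower, or 13.3% against 3.31% of all genes. These were CRTAP, a part of the collagen prolyl 3-hydroxylase complex, at 2.22-fold, and P4HA1, a prolyl 4-hydroxylase chain, at 2.07-fold. In blebbishields 1 of 15 was higher and 1 lower than in RT4P live cells, each 6.67%, against 7.12% and 4.76% of all genes. They were P3H1, the hydroxylase that binds CRTAP, at 2.46-fold higher and CRTAP at 2.47-fold lower. In RT4P-BSE2 2 of 16 were higher, or 12.5% against 1.31% of all genes. They were PLOD2, a lysyl hydroxylase of collagen crosslinks, at 9.96-fold, with 8.99 in RT4P-BSE2 and 5.68 in RT4P live cells, and P4HA2 at 2.04-fold. PLOD2 was also 2.36-fold higher in PBSHMS, at 6.91, 1 of 15 there, or 6.67% against 1.81% of all genes. In RT4v6 0 of 15 passed 2-fold.

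Of other matrix receptors, 9 were measured in blebbishields and 2 were lower than in RT4P live cells, or 22.2% against 4.76% of all genes. They were the hyaluronan receptor CD44 by 2.19-fold and CD47 by 2.22-fold. SDC2, a syndecan, was 2.53-fold lower in RT4v6, 1 of 9, or 11.1% against 2.41%. Of other basement membrane genes, 1 of 7 was lower in RT4v6, FRAS1, at 7.41 against 9.36 in RT4P live cells, or 3.86-fold, and 0 passed in the other 5 comparisons. The share was 14.3%, against 2.41% of all genes. Of other integrin ligands, 2 of 12 were higher and 1 lower in spheres than in RT4P live cells, or 16.7% and 8.33%, against 3.00% and 3.31% of all genes. They were ICAM2, an adhesion ligand, at 2.29-fold lower, THBS1, thrombospondin 1, at 2.56-fold higher, and SPP1, osteopontin, whose level was 9.86 in spheres, 8.33 in blebbishields, 7.25 in RT4P-BSE2 and 5.25 in RT4P live cells. In blebbishields 2 of 11 were higher and 1 lower than in RT4P live cells, or 18.2% and 9.09%, against 7.12% and 4.76% of all genes. They were SPP1 at 8.48-fold higher, CCN1 at 2.5-fold higher and ICAM2 at 2.55-fold lower. In RT4P-BSE2 SPP1 alone was higher, 1 of 12, or 8.33% against 1.31%. In RT4v6 1 of 12 was higher and 2 lower, or 8.33% and 16.7% against 1.15% and 2.41% of all genes, with TGFBI, a collagen-binding integrin ligand, at least 4.75-fold lower. In PBSHMS 3 of 11 were higher and 1 lower, or 27.3% and 9.09% against 1.81% and 2.04%, among them ADAM9 at 3.23-fold higher, the CCN protein gene CCN1 at 2.65-fold higher and ICAM2 at 4.29-fold lower.

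Most of these calls rest on single probes and on corrected background. Of the 28 calls, 6 had another detected probe, all in the same direction with no bound applied to it, and 22 rested on 1 detected probe. Of the same 28, 10 stayed past 2-fold under every alternative run for them and 18 fell under it in at least 1, while 0 changed direction. Among the 10 were those of COL7A1, COL24A1 and ITGAV in blebbishields, of COL22A1, COL5A2 and ITGA2 in RT4v6 and of COL5A2 in PBSHMS.

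**Figure D5:**
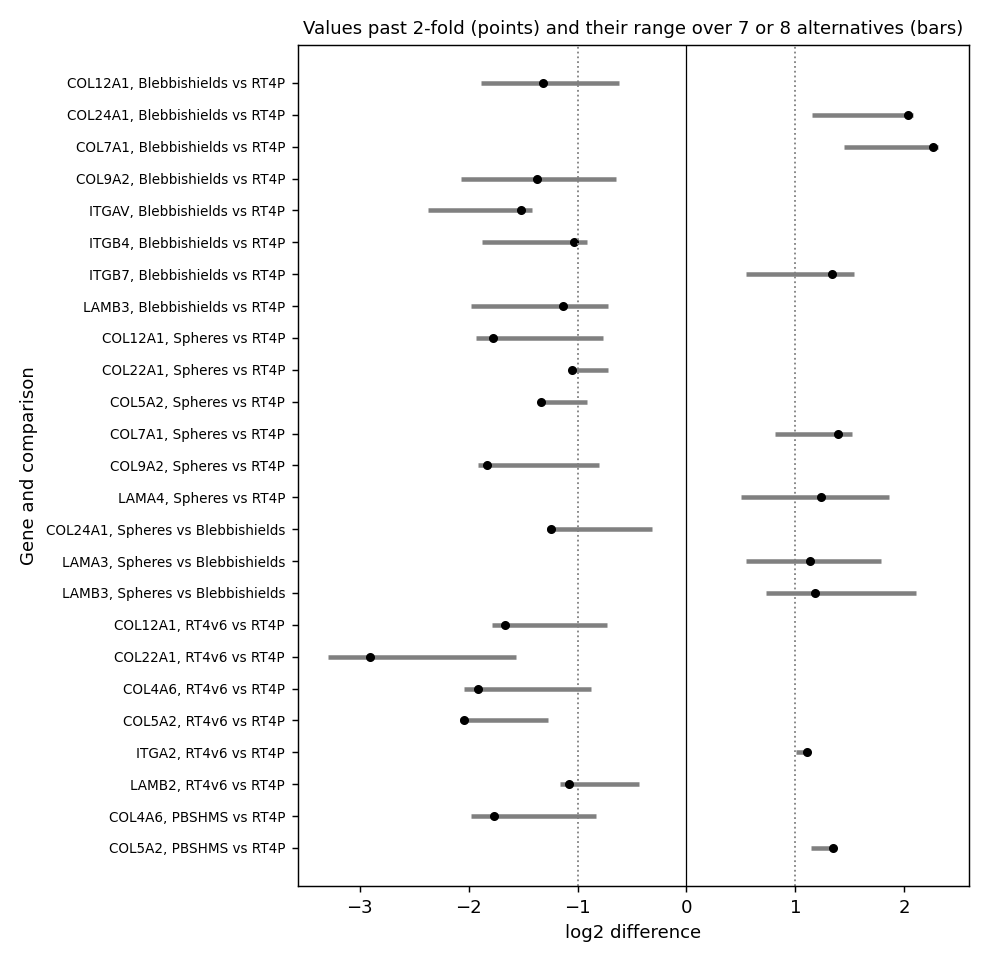
Log2 difference (horizontal axis) of the calls described above (vertical axis), as a black point, with a grey bar from its lowest to its highest value over the 7 or 8 alternative settings that could be run for it, and dotted lines at 2-fold. No bar crosses 0, and 7 stay outside the dotted lines.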

How the data were processed

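The authors deposited non-normalized intensity per probe and array, with a detection p-value each, per the file headers, and processed intensity values on the linear scale, whose quantiles are equal on all arrays as the values show. The submitters' processing notes name GenomeStudio without a version. Non-normalized intensity was corrected by normexp with negative controls estimated through these p-values, with an offset of 16, quantile normalized and put on the log2 scale (neqc, limma 3.58.1, R 4.3.3). The offset understates folds of dim genes. Differences, bounds and counts were computed in Python 3.11.15. Of 83 member names, 80 were current RefSeq symbols and 3 older ones. Samples were grouped by title, 1 array each, whose number limits the precision. Detected members are named, with values on all arrays where they passed 2-fold, except that some are not reported here, though they enter the counts and medians. From partner lists, the largest differences are named. Members and lists were chosen with earlier results of these data known. As a gauge of spread, the disagreement between a gene's 2 brightest probes, scaled to the SD of 1 probe, was 0.24 to 0.45 on the log2 scale, which is not replicate error. The steps were tested on simulated arrays. The 8 alternatives were no between-array normalization, arrays shifted to equal medians of probes detected on all 6, no background correction, an offset of 50, detection on all 6 arrays, no detection filter, the mean over detected probes and the authors' processed values.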

Additional observations from a re-analysis of the deposited data

How the results depend on the processing

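No paired analysis was possible because each group has 1 array. Member counts at 2-fold and median differences kept to within 1.5 times, or within the probe SD, with the mean over detected probes. Other settings moved them as follows, and the causes were not tested except where the setting's own construction shows them. Without between-array normalization, 19 members were lower in blebbishields than in RT4P live cells with a median of -1.05, 8 were higher and 0 lower in spheres than in blebbishields with a median of 0.68, and 2 were lower in PBSHMS. Under that setting 4197 of all 13716 genes were lower in blebbishields than in RT4P live cells, where 36 members were measured. In spheres against blebbishields 4636 of 14179 genes were higher and 205 lower, where 32 members were measured. In PBSHMS 385 of 13639 genes were lower. The median of all genes was -0.70 in blebbishields against RT4P live cells and 0.76 in spheres against blebbishields. With arrays shifted to equal medians, 4 were lower in spheres than in blebbishields, where 1261 of 14179 genes were lower in place of 854. Without background correction, 2 were lower in blebbishields, 0 higher and 1 lower in spheres, and 1 higher and 0 lower in spheres against blebbishields. It gave 2 lower in RT4v6 and 0 lower in PBSHMS. All genes past 2-fold were fewer too, with 273 lower in blebbishields in place of 653. In spheres 174 were higher and 203 lower, in place of 437 and 482. In spheres against blebbishields these counts were 150 and 424, in place of 430 and 854. In RT4v6 116 were lower in place of 339, and in PBSHMS 94 in place of 278. The authors' processed values gave 2 lower in blebbishields, 0 higher and 1 lower in spheres and 0 lower in spheres against blebbishields. In RT4v6 2 were lower and in PBSHMS 0. Of all genes these values gave 278 lower in blebbishields, 179 higher and 207 lower in spheres and 432 lower in spheres against blebbishields. In RT4v6 127 genes were lower and in PBSHMS 103. An offset of 50 gave 3 lower in blebbishields, 1 higher in spheres and 0 lower in spheres against blebbishields. For all genes these counts were 413, 259 and 558, in place of 653, 437 and 854. With detection on all 6 arrays, which leaves fewer genes, 22 members and 10465 in all, 1 member was higher and 2 lower in spheres. In RT4v6 2 were lower and in PBSHMS 0, where the median was 0.28. Of all genes 283 were higher and 342 lower in spheres, 213 lower in RT4v6 and 179 lower in PBSHMS. Without a detection filter, all 82 members and 34329 genes were counted in every comparison. Then 5 members were higher in blebbishields, 5 higher and 2 lower in spheres against blebbishields, 2 higher in RT4v6 and 2 lower in PBSHMS. The members' median in spheres against RT4P live cells was -0.052. Of all genes 1230 were higher in blebbishields, and 683 higher and 1043 lower in spheres against blebbishields. In RT4v6 221 were higher and in PBSHMS 363 lower. Of all genes at 2-fold, 59.9% were higher in blebbishields than in RT4P live cells, against 9.25% without between-array normalization and 72.9% with equal medians. For spheres against blebbishields these shares were 33.5%, 95.8% and 18.7%. Without between-array normalization the share was 59.1% in place of 47.6% in spheres and 31.4% in place of 47.0% in PBSHMS, and without background correction 95.2% in place of 82.7% in RT4P-BSE2.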
